A study of Mus musculus with 16 samples.

Results

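Secretory cells of the conducting airway were followed through 9 genes in whole mouse lung: the secretoglobins Scgb1a1, Scgb3a1 and Scgb3a2, the detoxifying enzymes Cyp2f2 and Aldh1a1, the antimicrobial protein Bpifa1, and the mucous cell genes Agr2, Muc5ac and Muc5b. They were taken by symbol from 20863 named genes on the array, each read from its brightest probe. All 9 were measured, and the set was chosen with earlier results of these data known. The probe for Bpifa1 carries the older symbol Plunc in the platform table.

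The study asked what silencing the microRNA miR-199a-5p does in lungs injured by bleomycin, a DNA-damaging drug that brings on fibrosis. RNA came from whole lungs of C57BL/6 mice aged 9 to 12 weeks, and 16 arrays with 1 colour (Cy3) were made from 0.2 ug RNA each. All animals received an oligonucleotide containing locked nucleic acid (LNA) through the trachea at 5 mg/kg, given 4 and 2 days before bleomycin or PBS and once more 4 days after. The oligonucleotide was either LNA-miR-199a-5p or a control, LNA-control. The 4 groups were PBS with LNA-control (3 arrays), PBS with LNA-miR-199a-5p (3 arrays), bleomycin at 1 unit/kg with LNA-control (5 arrays) and bleomycin at 1 unit/kg with LNA-miR-199a-5p (5 arrays). No group was left without an LNA, so no value describes lungs that received none. Replicates are numbered in the labels, with no word on whether they were different animals, so p-values measure the spread between these samples, part of which may be technical.

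Club cells are the dome-shaped secretory cells of the small airways: they release secretoglobins, break down inhaled chemicals with cytochrome P450 and aldehyde dehydrogenase enzymes, and act as progenitors when the airway is injured. Goblet cells make the gel-forming mucins, and the type 2 cytokine IL-13 drives secretory cells towards that state. In whole lung these are minority cells, so a lower signal from fewer secretory cells and one from less RNA per cell cannot be told apart.

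The oligonucleotide was directed at mature miR-199a-5p, printed because it is the molecule that separates the groups. Capitals mark the seed, bases 2 to 8, with which a microRNA pairs to its targets. The same mature sequence comes from 2 loci in RefSeq (GRCm38.p6), chr9:21496537-21496559 on the minus strand (Mir199a-1) and chr1:162217844-162217866 on the plus strand (Mir199a-2).
mmu-miR-199a-5p: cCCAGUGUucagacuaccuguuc

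RefSeq promoters were held for 5 of the 9 genes, with 6 entries. Those of Scgb3a1 and Bpifa1 are shown as examples of genes higher with LNA-miR-199a-5p in bleomycin lungs. Aldh1a1 was also higher there, and its promoter entries are not shown. That of Agr2 is shown because it was the one member higher after bleomycin with LNA-control. Each is the 250 bases before the start of the gene, read 5′ to 3′ on the plus strand of GRCm38.p6: chr11:49663345-49663594 for Scgb3a1, chr2:154142630-154142879 for Bpifa1 and chr12:35992675-35992924 for Agr2. Capitals mark matches, on either strand, to letters typical of forkhead box A (FOXA) factors, searched as TGTTTAC, as TGTTTGC and also as TATTTAC, and of NKX2-1, searched as CTCAAG and also as CAAGTG. Both kinds of factor act in the airway epithelium.
Scgb3a1: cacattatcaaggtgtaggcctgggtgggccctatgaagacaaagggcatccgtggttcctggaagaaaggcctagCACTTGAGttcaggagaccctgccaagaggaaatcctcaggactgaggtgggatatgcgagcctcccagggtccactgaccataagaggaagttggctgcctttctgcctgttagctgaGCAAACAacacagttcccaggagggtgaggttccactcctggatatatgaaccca
Bpifa1: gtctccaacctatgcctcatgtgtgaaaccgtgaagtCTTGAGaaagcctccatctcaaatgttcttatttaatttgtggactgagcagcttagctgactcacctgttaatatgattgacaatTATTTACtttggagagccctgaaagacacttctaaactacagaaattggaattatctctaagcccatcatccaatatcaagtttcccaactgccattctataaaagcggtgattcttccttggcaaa
Agr2: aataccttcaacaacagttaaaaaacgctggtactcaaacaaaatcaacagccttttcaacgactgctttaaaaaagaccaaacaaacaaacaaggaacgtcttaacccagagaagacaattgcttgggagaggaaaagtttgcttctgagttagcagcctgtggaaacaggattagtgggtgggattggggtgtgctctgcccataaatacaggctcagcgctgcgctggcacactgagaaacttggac

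The FOXA letters were present in 3 of the 6 entries, from 3 genes (Scgb3a1, Bpifa1 and Aldh1a1), and in 9.73% of 32851 promoters of the same length. The NKX2-1 letters were present in 4 of the 6, from those 3 genes and Cyp2f2, against 22.6% of all promoters. In Scgb3a1 the CAAGTG and CTCAAG matches overlap, from base -174 to -169 and from base -172 to -167 before the start, both on the opposite strand. The FOXA match of Scgb3a1 lies at -55 to -49 and that of Bpifa1 at -127 to -121. No match was found in the Agr2 window. A match describes letters only, and binding was not measured.

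The arrays had near-identical value distributions, and arrays within a group correlated at 0.989 or more. RNA integrity numbers averaged 8.33, 8.33, 8.2 and 9.0 in the 4 groups in the order above. The tissue label was borne out by surfactant and ciliated cell markers: the 12 type 2 cell genes averaged 14.89 to 15.20 on every array and the 18 measured ciliated cell genes 10.81 to 11.19. Transcripts of tissue around the airway were also present. The thymocyte gene Rag1 was at 10.03 and 10.88 on replicates 1 and 4 in the bleomycin group given LNA-control, and the 12 squamous epithelium genes averaged 6.25 to 10.72 over the 3 arrays of PBS with LNA-miR-199a-5p, with Krt13 at 5.59 on replicate 3 and 14.01 and 14.81 on the others. Cartilage and submucosal gland lists averaged 5.46 to 6.00 and 5.63 to 5.90, with 8 of 13 and 8 of 12 markers below the lower quartile of gene means (5.73).

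All values are log2 intensities, a difference of 1 is 2-fold, and a gene is called at a limma adjusted p under 0.05 over all genes of a comparison. Fold changes are given with their standard error. Arrays compress bright signals: the top of the scale was 18.32 on every array, and a probe is marked near the ceiling when it comes within 1 of it.

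**Figure D1:**
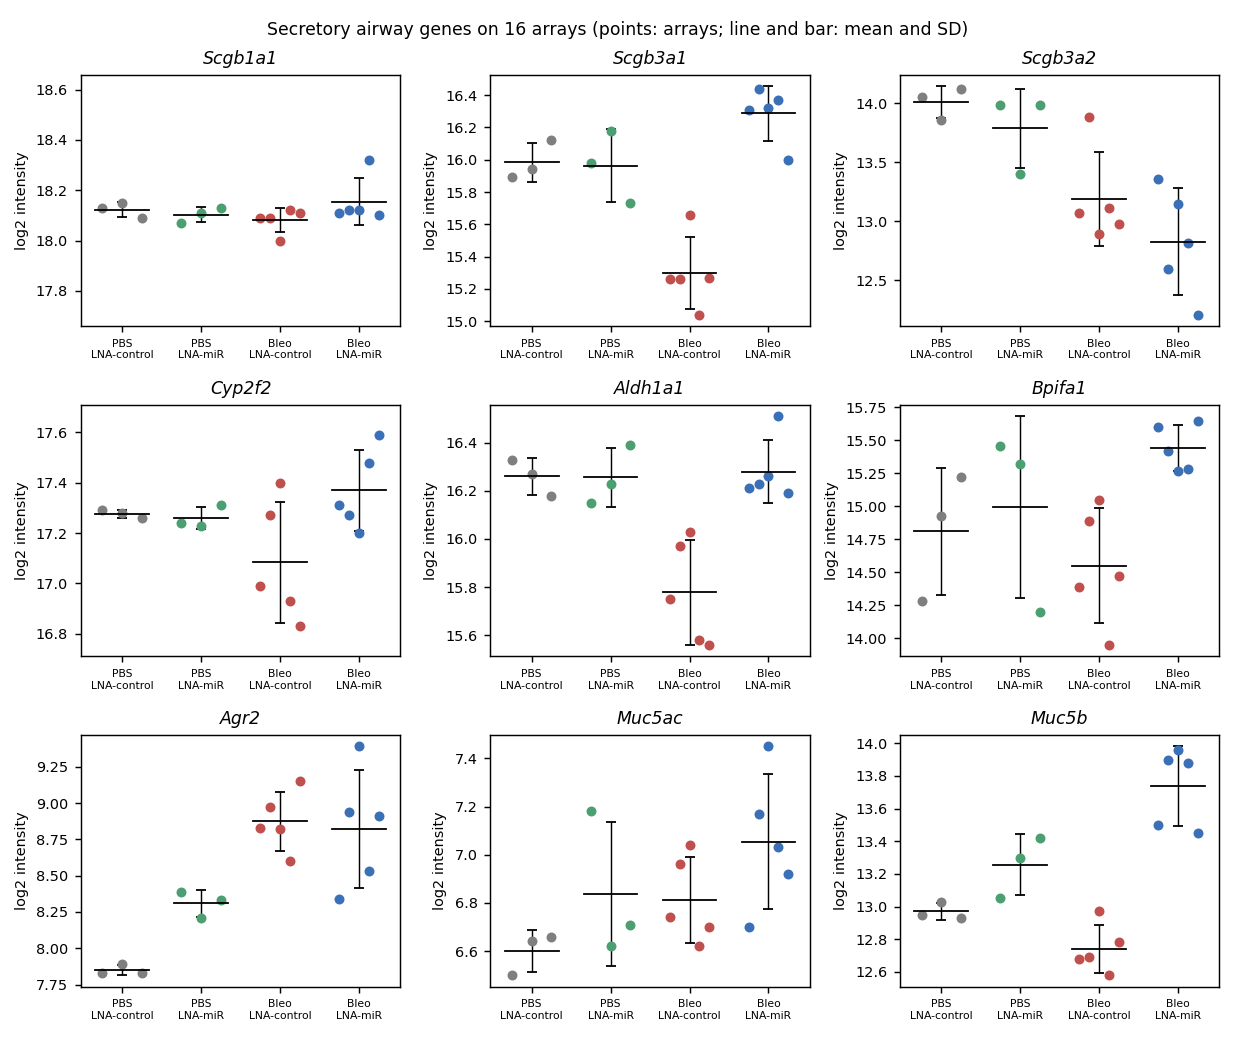
Log2 intensity (vertical axis) of the 9 genes on 16 arrays, by group (horizontal axis; LNA-miR stands for LNA-miR-199a-5p and Bleo for bleomycin). Points are arrays, and the line and bar are the group mean and SD; each panel has its own scale. Scgb3a1 and Aldh1a1 dip in bleomycin with LNA-control, Muc5b is highest in bleomycin with LNA-miR-199a-5p, and Scgb1a1 lies between 18.00 and 18.32 on all arrays.

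Scgb1a1 encodes the club cell secretory protein, the main marker of these cells. With PBS and LNA-control it read 18.13, 18.15 and 18.09, and with PBS and LNA-miR-199a-5p 18.07, 18.11 and 18.13. Bleomycin lungs read 18.09, 18.09, 18.00, 18.12 and 18.11 with LNA-control, and 18.11, 18.12, 18.12, 18.32 and 18.10 with LNA-miR-199a-5p. All 16 values were within 1 of the top of the scale, and the groups overlapped. The probe ranked 3 of 62976 spots, so a difference in Scgb1a1 cannot be read from this array. No comparison was called: the differences between groups ran from -0.04 ± 0.07 (bleomycin with LNA-control) to 0.08 ± 0.06 (LNA-miR-199a-5p in bleomycin lungs), and those of its 10 spots from -0.08 to 0.15.

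Scgb3a1, a secretoglobin of larger airways, was measured well below the ceiling. It read 15.89, 15.94 and 16.12 with PBS and LNA-control and 15.98, 16.18 and 15.73 with PBS and LNA-miR-199a-5p. In bleomycin lungs it read 15.26, 15.26, 15.66, 15.04 and 15.27 with LNA-control, and 16.31, 16.44, 16.32, 16.37 and 16.00 with LNA-miR-199a-5p. The 5 arrays of bleomycin with LNA-control lay below all others, and the other 3 groups overlapped one another. Scgb3a1 fell by 0.69 after bleomycin with LNA-control (SE 0.13, 1.61-fold, limma adjusted p = 0.00162). In bleomycin lungs it was 0.99 ± 0.11 higher with LNA-miR-199a-5p (1.99-fold, limma adjusted p = 2.86e-05). In PBS lungs the 2 LNAs differed by -0.02 ± 0.15, and the interaction, the difference between the effects in bleomycin and PBS lungs, was 1.01 ± 0.19 (limma adjusted p = 0.00533). Its 10 spots gave falls between -0.69 and -0.61 after bleomycin with LNA-control and rises between 0.89 and 0.99 with LNA-miR-199a-5p.

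Scgb3a2, a secretoglobin of club cells and early airway epithelium, was read by 2 probes that differed. The brighter one, used by the rule, read 14.05, 13.86 and 14.12 with PBS and LNA-control and 13.98, 13.40 and 13.98 with PBS and LNA-miR-199a-5p. Its bleomycin values were 13.07, 13.88, 12.89, 13.11 and 12.98 with LNA-control, and 13.36, 12.60, 13.15, 12.82 and 12.21 with LNA-miR-199a-5p. All arrays of the last group lay below both PBS groups, and replicate 2 in the bleomycin group given LNA-control stood inside the PBS range. By this probe Scgb3a2 fell by 0.83 after bleomycin with LNA-control (SE 0.24, limma adjusted p = 0.0267), and by 0.96 with LNA-miR-199a-5p (SE 0.24, limma adjusted p = 0.0204). In bleomycin lungs its difference with LNA-miR-199a-5p was -0.36 ± 0.21 (limma adjusted p = 0.236). The first of these calls was lost on leaving out any of 7 arrays: each of the 3 of PBS with LNA-control, or replicate 1, 3, 4 or 5 in the bleomycin group given LNA-control (limma adjusted p from 0.0517 to 0.11). The second was lost without replicate 1 or 3 in the PBS group given LNA-miR-199a-5p (0.0759 and 0.0754).

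The dimmer Scgb3a2 probe had another pattern. It read 10.31, 10.42 and 10.67 with PBS and LNA-control and 10.40, 10.49 and 10.36 with PBS and LNA-miR-199a-5p. After bleomycin it read 9.17, 9.57, 9.86, 9.39 and 9.11 with LNA-control, and 10.27, 10.25, 10.07, 10.06 and 10.00 with LNA-miR-199a-5p. The arrays of bleomycin with LNA-control were the 5 lowest, with no overlap with any group. By this probe, Scgb3a2 fell by 1.05 after bleomycin with LNA-control (SE 0.14, 2.07-fold, limma adjusted p = 8.28e-05) and was 0.71 ± 0.12 higher with LNA-miR-199a-5p in bleomycin lungs (1.64-fold, limma adjusted p = 0.00065). Over the 16 arrays the 2 probes correlated at 0.425, and with the mean of 19 other club cell genes the brighter correlated at 0.261 and the dimmer at 0.939. These are descriptions over arrays that share the 4 groups. Both probes put Scgb3a2 lower after bleomycin with LNA-control, and the direction with LNA-miR-199a-5p in bleomycin lungs depends on the probe. Further calls depend on it. Among lungs given LNA-miR-199a-5p the dimmer probe gave -0.29 ± 0.14 after bleomycin, which was not called (limma adjusted p = 0.178). Its interaction of 0.76 ± 0.20 was called (limma adjusted p = 0.0312), where the brighter probe gave -0.13 ± 0.35 (0.862).

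**Figure D2:**
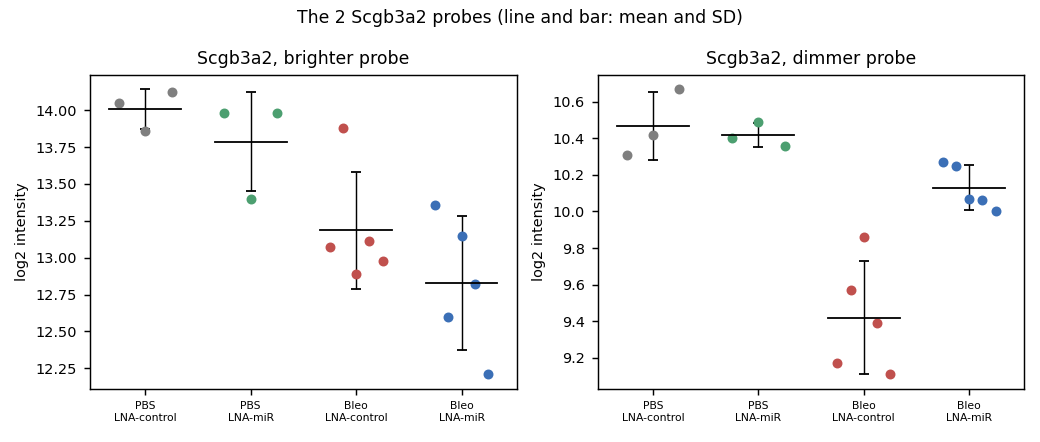
Log2 intensity (vertical axis) of the brighter and the dimmer Scgb3a2 probe on each array, by group (horizontal axis; LNA-miR stands for LNA-miR-199a-5p and Bleo for bleomycin), with mean and SD. The dimmer probe reads 9.11 to 9.86 in bleomycin with LNA-control and 10.00 to 10.27 in bleomycin with LNA-miR-199a-5p, whereas those groups overlap for the brighter probe.

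Cyp2f2, the cytochrome P450 with which mouse club cells activate naphthalene, read 17.29, 17.28 and 17.26 with PBS and LNA-control and 17.24, 17.23 and 17.31 with PBS and LNA-miR-199a-5p. Bleomycin lungs read 16.99, 17.27, 17.40, 16.93 and 16.83 with LNA-control, and 17.31, 17.27, 17.20, 17.48 and 17.59 with LNA-miR-199a-5p. Arrays of bleomycin with LNA-control spread below and above both PBS groups and overlapped bleomycin with LNA-miR-199a-5p, and 3 of the 16 arrays were near the ceiling, which can only shrink a difference. No comparison was called: the change after bleomycin with LNA-control was -0.19 ± 0.12 (limma adjusted p = 0.312). With LNA-miR-199a-5p in bleomycin lungs the difference of 0.29 ± 0.10 was at a limma adjusted p = 0.0506, and it was called in 4 of 12 alternative settings.

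Aldh1a1, the retinaldehyde dehydrogenase of club cells, read 16.33, 16.27 and 16.18 with PBS and LNA-control and 16.15, 16.23 and 16.39 with PBS and LNA-miR-199a-5p. In bleomycin lungs it read 15.75, 15.97, 16.03, 15.58 and 15.56 with LNA-control, and 16.21, 16.23, 16.26, 16.51 and 16.19 with LNA-miR-199a-5p. As for Scgb3a1, bleomycin with LNA-control stood below every other array and the remaining groups overlapped. Aldh1a1 fell by 0.48 after bleomycin with LNA-control (SE 0.11, 1.4-fold, limma adjusted p = 0.00603) and was 0.50 ± 0.10 higher with LNA-miR-199a-5p in bleomycin lungs (1.42-fold, limma adjusted p = 0.00157). The call after bleomycin with LNA-control was lost with cartilage and squamous means as covariates (-0.37, limma adjusted p = 0.0769). It was also lost with brown fat and heart means (-0.34, 0.181). Bleomycin with LNA-miR-199a-5p against its PBS group gave 0.02 ± 0.11. The interaction, 0.51 ± 0.16, missed the threshold (limma adjusted p = 0.0641). It was called with array weights (0.00404) and in a trended robust fit (0.0495), and in 9 other settings it was not.

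Bpifa1, a secreted antimicrobial and surfactant-like protein of nasal and upper airway epithelium, had SDs of 0.48, 0.69, 0.43 and 0.18 in the 4 groups in the order of the opening. It read 14.28, 14.93 and 15.22 with PBS and LNA-control and 15.46, 15.32 and 14.20 with PBS and LNA-miR-199a-5p. Its bleomycin values were 14.39, 14.89, 15.05, 13.95 and 14.47 with LNA-control, and 15.60, 15.42, 15.27, 15.28 and 15.65 with LNA-miR-199a-5p. The 2 bleomycin groups did not overlap, and both PBS groups overlapped bleomycin with LNA-control. The difference of 0.89 ± 0.24 with LNA-miR-199a-5p in bleomycin lungs was called (1.86-fold, limma adjusted p = 0.0135), and no other was: bleomycin with LNA-control gave -0.26 ± 0.28. The call was lost without the 2 arrays rich in thymocyte transcripts, replicates 1 and 4 in the bleomycin group given LNA-control (0.64, limma adjusted p = 0.131). The array lowest for Bpifa1 among PBS lungs, replicate 3 in the PBS group given LNA-miR-199a-5p, was also the lowest of the 16 for Krt13, and the squamous genes averaged 9.57 to 10.38 in bleomycin with LNA-control against 10.31 to 11.05 with LNA-miR-199a-5p. With the squamous and cartilage means as covariates, the Bpifa1 difference was 0.72 (limma adjusted p = 0.0271).

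Agr2 encodes a disulphide isomerase of the endoplasmic reticulum that mucin-making cells need. It read 7.83, 7.89 and 7.83 with PBS and LNA-control and 8.39, 8.21 and 8.33 with PBS and LNA-miR-199a-5p. After bleomycin it read 8.83, 8.97, 8.82, 8.60 and 9.15 with LNA-control, and 8.34, 8.94, 9.39, 8.53 and 8.91 with LNA-miR-199a-5p. PBS with LNA-control was lowest with no overlap with any group, and the 2 bleomycin groups overlapped. Agr2 rose by 1.03 ± 0.18 after bleomycin with LNA-control (2.04-fold, limma adjusted p = 0.000678). With LNA-miR-199a-5p the bleomycin difference was 0.51 ± 0.18, just short of the threshold (limma adjusted p = 0.0629; 0.0151 without replicate 1 in the bleomycin group given LNA-miR-199a-5p). The interaction of -0.51 ± 0.25 did not pass (limma adjusted p = 0.234), so the 2 bleomycin effects are not shown to differ. In bleomycin lungs the LNAs differed by -0.05 ± 0.15 (95% interval -0.38 to 0.27).

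Muc5b, the gel-forming mucin that club cells of the normal airway secrete, read 12.95, 13.03 and 12.93 with PBS and LNA-control and 13.05, 13.30 and 13.42 with PBS and LNA-miR-199a-5p. Bleomycin lungs read 12.68, 12.69, 12.97, 12.58 and 12.78 with LNA-control, and 13.50, 13.90, 13.96, 13.88 and 13.45 with LNA-miR-199a-5p. Every array of bleomycin with LNA-miR-199a-5p lay above every other array. Muc5b was 1.00 ± 0.11 higher with LNA-miR-199a-5p in bleomycin lungs (2.0-fold, limma adjusted p = 1.73e-05), and it rose by 0.48 ± 0.13 after bleomycin among lungs given LNA-miR-199a-5p (1.4-fold, limma adjusted p = 0.0227). The second call was lost without replicate 1 or 2 in the PBS group given LNA-miR-199a-5p (0.105 and 0.0533). It was also lost with only the groups compared (limma adjusted p = 0.0851) and with RNA integrity as a covariate (0.0623). After bleomycin with LNA-control the change was -0.23 ± 0.13 (limma adjusted p = 0.255), and the interaction was 0.71 ± 0.18 (limma adjusted p = 0.0268). That interaction missed the threshold on leaving out any of 6 arrays (0.0502 to 0.0792). They were the 3 of PBS with LNA-control and replicates 1 and 2 in the PBS group given LNA-miR-199a-5p. The last was replicate 4 in the bleomycin group given LNA-control. The interaction also missed the threshold in 4 other settings (limma adjusted p from 0.063 to 0.115).

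Muc5ac, the gel-forming mucin of goblet cells that allergens and IL-13 induce, read 6.50, 6.64 and 6.66 with PBS and LNA-control and 7.18, 6.62 and 6.71 with PBS and LNA-miR-199a-5p. In bleomycin lungs it read 6.74, 6.96, 7.04, 6.62 and 6.70 with LNA-control, and 6.70, 7.17, 7.45, 7.03 and 6.92 with LNA-miR-199a-5p. All groups overlapped their neighbours in level and no comparison was called. The 4 differences between groups lay between 0.21 ± 0.16 and 0.25 ± 0.13, and the interaction was 0.01 ± 0.22. Its probe lay above 36.4% of all genes by mean, so a change in a few goblet cells could be hidden near the lower end of the scale.

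**Figure D3:**
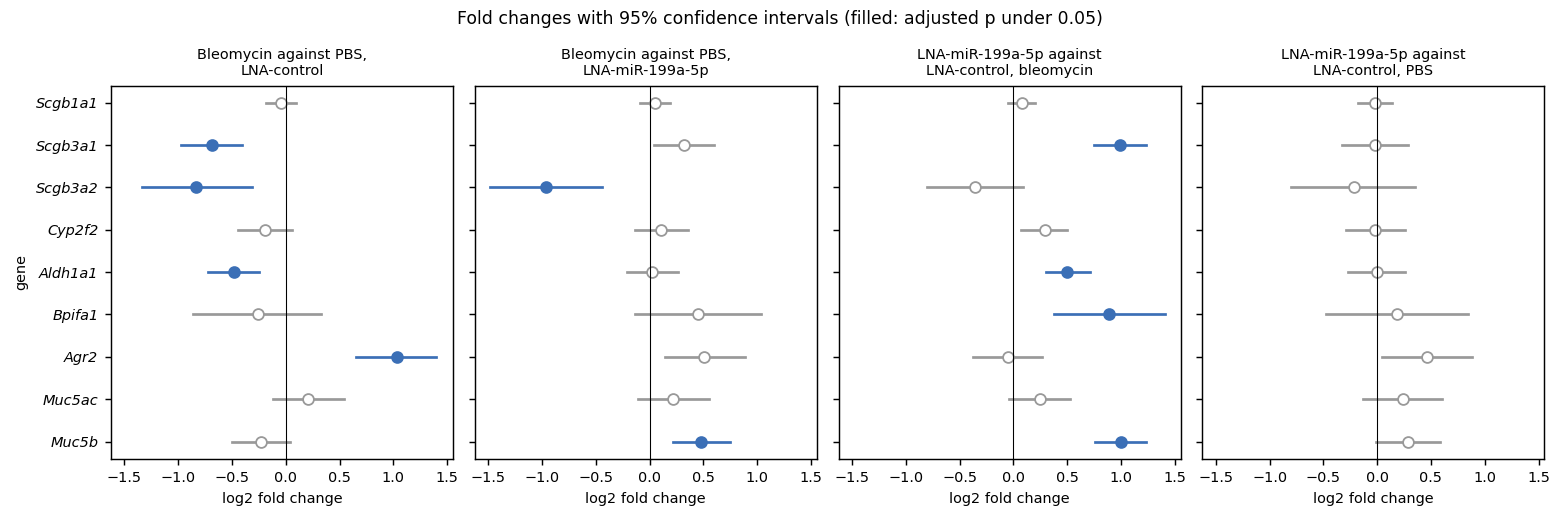
Log2 fold change (horizontal axis) of each gene (vertical axis) with its 95% confidence interval from limma, in 4 comparisons. Filled points have an adjusted p under 0.05. Of the filled points, Agr2 (1.03) and the 3 at Scgb3a1, Scgb3a2 and Aldh1a1 (-0.69, -0.83 and -0.48) are in the first panel, 2 in the next and 4 in the one after it, and the last panel has none.

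Ordered by group mean, Scgb3a1, Cyp2f2 and Aldh1a1 were highest in bleomycin lungs given LNA-miR-199a-5p, then in PBS lungs given LNA-control, in PBS lungs given LNA-miR-199a-5p and in bleomycin lungs given LNA-control. For Scgb3a1 and Aldh1a1 the last step was the one between neighbours whose arrays did not overlap, and for Cyp2f2 every step overlapped. Bpifa1 and Muc5b were also highest in bleomycin lungs given LNA-miR-199a-5p and lowest in those given LNA-control, with PBS and LNA-miR-199a-5p above PBS and LNA-control in between. Every step of Bpifa1 overlapped, and the lowest step of Muc5b did. Agr2 was highest in bleomycin lungs given LNA-control, then in those given LNA-miR-199a-5p, and lowest in PBS lungs given LNA-control, the one step with no overlap. By its brighter probe Scgb3a2 had another order: PBS lungs given LNA-control, PBS lungs given LNA-miR-199a-5p, bleomycin lungs given LNA-control and, lowest, bleomycin lungs given LNA-miR-199a-5p, with overlap at every step. Muc5ac was highest in bleomycin lungs given LNA-miR-199a-5p and lowest in PBS lungs given LNA-control, and every step overlapped. No order is given for Scgb1a1, whose probe was at the ceiling.

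By comparison, bleomycin with LNA-control lowered 3 of the 9 genes (Scgb3a1, Scgb3a2 and Aldh1a1) and raised 1 (Agr2), against 17.5% of all genes called (9.6% higher and 7.9% lower). Values of both groups were fully separate for 3 of the 9 and for 25.3% of all genes, and the median of the 9 was -0.23 against 0.00 over all genes. Bleomycin with LNA-miR-199a-5p gave 2 calls, Scgb3a2 lower and Muc5b higher, against 13.4% of all genes (7.31% higher and 6.04% lower). The call of Scgb3a2 rests on its brighter probe, since the dimmer one gave -0.29 (limma adjusted p = 0.178). There was no overlap for 2 of the 9 and for 20.7% of all genes, and the median was 0.22 against 0.01.

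LNA-miR-199a-5p in bleomycin lungs raised 4 of the 9 (Muc5b, Scgb3a1, Aldh1a1 and Bpifa1) and lowered none, where 24.9% of all genes were called and 13.4% were called higher. There was no overlap for those 4 and for 13.8% of all genes, and the median was 0.29 against 0.01. In PBS lungs limma called 0 of the 9, against 0.0479% of all genes (0.0336% higher and 0.0144% lower), with Agr2 at an unadjusted p of 0.033 the 1 gene under 0.05. There was no overlap for 2 (Agr2 and Muc5b) and for 18.1% of all genes. The interaction was called for 2 of the 9, Scgb3a1 and Muc5b, both higher, against 7.01% of all genes (3.07% higher and 3.94% lower). The comparison of bleomycin with PBS under LNA-control and that of the LNAs in bleomycin lungs share the 5 arrays of bleomycin with LNA-control, so a low value on those arrays enters both with opposite signs.

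Other cell types moved along with these groups. Over all genes 17.5% were called after bleomycin with LNA-control, while LNA-miR-199a-5p in bleomycin lungs gave 24.9%. Of 10 heart muscle genes 6 were lower after bleomycin with LNA-control and 10 higher with LNA-miR-199a-5p in bleomycin lungs. Mouse pulmonary veins carry sleeves of heart muscle, and the source of the heart muscle transcripts in these samples was not tested. The next values are for these 10 genes. Their mean was 11.87 to 12.13 with PBS and LNA-control, 12.16 to 12.22 with PBS and LNA-miR-199a-5p, 11.35 to 11.94 in bleomycin lungs given LNA-control, where bleomycin lungs given LNA-miR-199a-5p reached 11.99 to 12.68. The 8 brown fat genes averaged 10.25 to 11.19 and 11.31 to 11.96 in the bleomycin groups with LNA-control and LNA-miR-199a-5p. With the heart and fat means as covariates, which move with the groups, calls with LNA-miR-199a-5p in bleomycin lungs dropped from 5188 to 171 over all genes. Among the 9 genes Muc5b stayed called at 1.19 (limma adjusted p = 0.011). Scgb3a1 was at 0.86 (0.115), Aldh1a1 at 0.30 (0.553) and Bpifa1 at -0.05 (0.976).

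Of 13 macrophage genes 11 rose after bleomycin with LNA-control. In bleomycin lungs 11 were lower and 1 higher under LNA-miR-199a-5p. Of 9 measured neutrophil genes 7 fell and 6 were higher in the same comparisons. Macrophage means were 11.29 to 11.44 and 11.46 to 11.64 in PBS lungs with LNA-control and LNA-miR-199a-5p, and 12.64 to 13.00 and 11.86 to 12.07 in bleomycin lungs. Neutrophil means were 11.20 to 11.34, 11.45 to 11.67, 10.45 to 10.55 and 11.17 to 11.29 in the same order. Ciliated cells, the other main type of the airway lining, had 1 of 18 genes higher and 5 lower after bleomycin with LNA-control, and 2 higher and 1 lower with LNA-miR-199a-5p in bleomycin lungs. That is 33.3% and 16.7% of the 18, the second below the 24.9% of all genes. The part of these cells in the results for the 9 genes was not tested. Without the 2 thymocyte-rich arrays the members called were 3, 2, 3, 0 and 1, where all arrays gave 4, 2, 4, 0 and 2 for the 5 comparisons. Over all genes the shares called without them were 10.8%, 11.1%, 11.3%, 0.0144% and 2.52%. With all arrays these shares were 17.5%, 13.4%, 24.9%, 0.0479% and 7.01%.

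A list of 20 other club cell genes, 19 of them measured, moved in the same comparisons. After bleomycin with LNA-control 10 fell and 1 rose, with a median of -0.39 against 0.00 over all genes. The calls are 57.9% of the list, against 17.5% of all genes, and 11 had no overlap, against 25.3% of all genes. Pon1, a paraoxonase that hydrolyses toxic organophosphates, fell by 1.32 (SE 0.15, 2.49-fold, limma adjusted p = 2.44e-05). The epoxide-forming Cyp4b1 fell by 1.10 (SE 0.15), the aldehyde oxidase gene Aox3 by 1.07 (SE 0.16) and Cldn10, a claudin of club cell junctions, by 0.80 (SE 0.11). The gene that rose was Upk3a, which marks club cells near neuroendocrine bodies, by 0.84 ± 0.14 (limma adjusted p = 0.000526). Upk3a is named here after its values were seen.

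With LNA-miR-199a-5p in bleomycin lungs 11 of the 19 club cell genes were higher and 1 lower, with a median of 0.36 against 0.01. The calls are 63.2% of the list, against 24.9% of all genes, and 10 had no overlap, against 13.8% of all genes. Lypd2 stood 1.35 ± 0.17 higher (2.55-fold, limma adjusted p = 6.06e-05), Chad 1.31 ± 0.18, Aox3 1.05 ± 0.13 and Gsta3, a glutathione transferase, 0.87 ± 0.13. Lypd2 read 13.02, 13.15 and 13.27 with PBS and LNA-control, and 11.75, 12.29, 12.68, 11.90 and 11.67 with bleomycin and LNA-control. Bleomycin lungs given LNA-miR-199a-5p read 13.16, 13.28, 13.25, 13.75 and 13.61. With PBS and LNA-miR-199a-5p it read 12.88, 13.12 and 13.35, and bleomycin with LNA-control lay below all 3 other groups. The gene that was lower was again Upk3a, by -0.61 ± 0.12. Among lungs given LNA-miR-199a-5p, bleomycin changed 2 of the 19 (10.5%, against 13.4% of all genes), both lower: Gabrp, a subunit of a GABA receptor, by -1.15 ± 0.22 and Sec14l3 by -0.36 ± 0.09. In PBS lungs limma called 0 of the 19 between the LNAs, against 0.0479% of all genes. The interaction was called for 7, 6 higher and 1 lower (36.8%, against 7.01% of all genes). With the heart and fat means as covariates the count with LNA-miR-199a-5p in bleomycin lungs was 0 in place of 12. In that fit 0.82% of all genes were called. Without the thymocyte-rich arrays the count was 11, against 11.3% of all genes. The list's interaction count in these settings was 0 and 4, against 0.839% and 2.52% of all genes.

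Of 25 other goblet, mucous and serous genes 24 were measured. After bleomycin with LNA-control 9 rose and 2 fell, with a median of 0.22 against 0.00. The calls are 45.8% of the list, against 17.5% of all genes (9.6% higher and 7.9% lower). Slc26a4, the anion exchanger pendrin that mucous cells use to alter airway surface liquid, rose by 2.98 ± 0.45 (7.88-fold, limma adjusted p = 0.000223). It read 9.11, 9.09 and 8.75 with PBS and LNA-control and 12.19, 11.90, 11.50, 11.95 and 12.29 with bleomycin and LNA-control, with a wide gap between the groups. Dmbt1, a mucosal scavenger receptor, rose by 1.11 ± 0.11, the membrane mucin Muc4 by 0.85 ± 0.10 and the lectin Itln1 by 0.69 ± 0.13. The goblet cell transcription factors Spdef and Foxa3 were at -0.09 ± 0.11 and 0.11 ± 0.11 and were not called; both are named after their values were seen.

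With LNA-miR-199a-5p in bleomycin lungs 6 of the 24 were higher and 7 lower, 54.2% in all against 24.9% of all genes. Tff2, a trefoil peptide of mucus, stood higher by 1.24 ± 0.18 (2.36-fold, limma adjusted p = 0.000188), and Slc26a4 (-1.77 ± 0.39), Dmbt1 (-0.68 ± 0.09) and Muc4 (-0.59 ± 0.09) were lower. Tff2 had fallen by 0.81 (SE 0.21) after bleomycin with LNA-control. Among lungs given LNA-miR-199a-5p, bleomycin raised 4 and lowered 2 of the 24 (25%, against 13.4% of all genes): Itln1 rose by 0.91 ± 0.13, Reg3g by 0.61 ± 0.16 and Muc16 by 0.50 ± 0.13, and the immunoglobulin transporter Pigr fell by 0.74 (SE 0.11). The interaction was called for 5 (20.8%, against 7.01% of all genes), among them Dmbt1 (-0.95 ± 0.15, limma adjusted p = 0.00177), Muc4 (-0.80 ± 0.14) and Muc16 (0.83 ± 0.18). With the heart and fat means as covariates 1 of the 24 was called with LNA-miR-199a-5p in bleomycin lungs, against 0.82% of all genes. Without the thymocyte-rich arrays 7 were called in that comparison, against 11.3% of all genes. After bleomycin with LNA-control the heart and fat covariates gave 5 calls in place of 11, against 7.44% of all genes. Without replicate 3 in the PBS group given LNA-miR-199a-5p, 3 of the 24 were called in place of 6 among lungs given LNA-miR-199a-5p. Over all genes the share was then 5.68%.

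**Figure D4:**
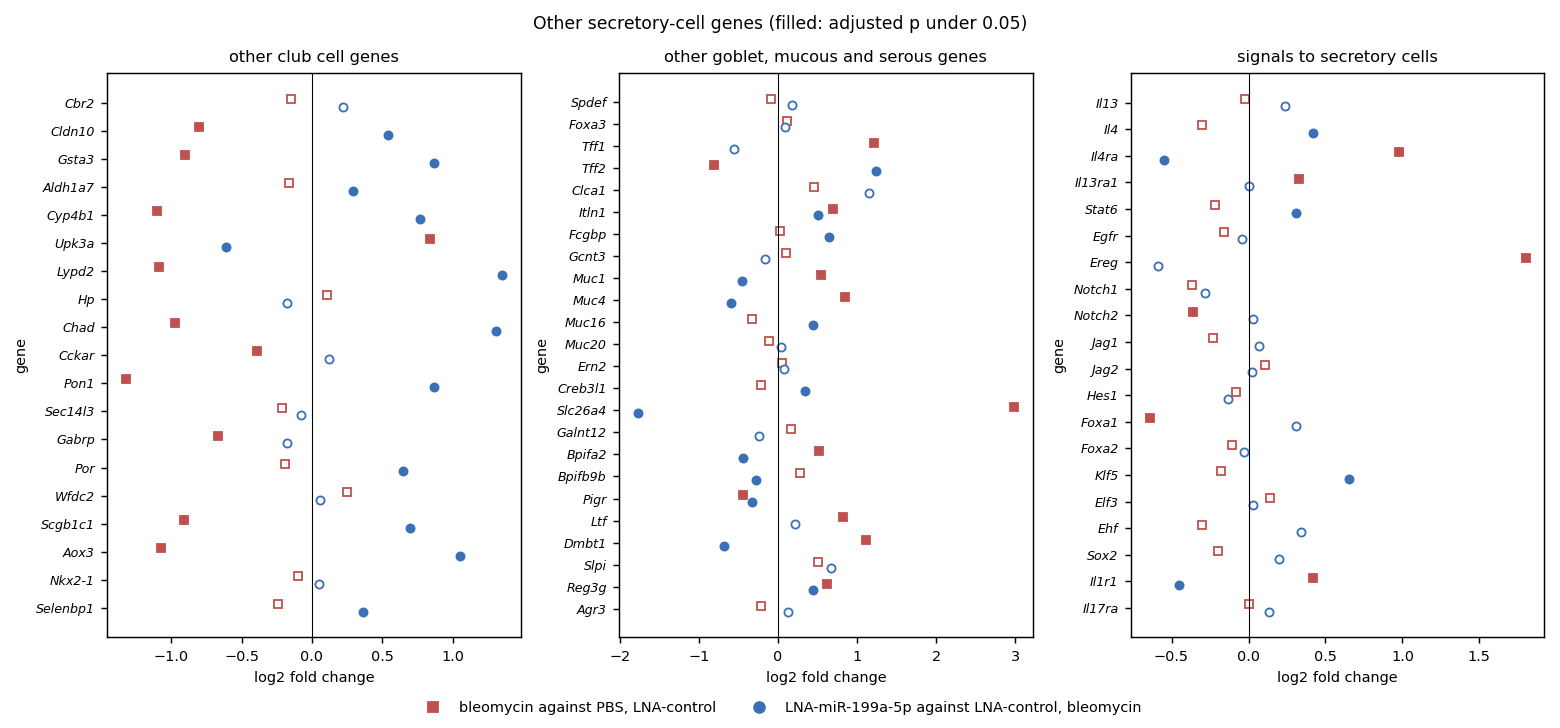
Log2 fold change (horizontal axis) of each measured gene (vertical axis) of 3 lists. Squares are bleomycin against PBS with LNA-control, circles LNA-miR-199a-5p against LNA-control in bleomycin lungs, and filled symbols have a limma adjusted p under 0.05. The 2 comparisons share the arrays of bleomycin with LNA-control. Of the club cell genes 10 filled squares lie left of 0 and 11 filled circles right of it, and Upk3a is reversed.

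Of 21 genes for signals to secretory cells 20 were measured. After bleomycin with LNA-control 4 rose and 2 fell (30.0%, against 17.5% of all genes): the growth factor Ereg rose by 1.80 ± 0.34 (3.48-fold, limma adjusted p = 0.00148) and the IL-4 and IL-13 receptor chain Il4ra by 0.98 ± 0.18, and the transcription factor Foxa1 fell by 0.64 (SE 0.13) and Notch2 by 0.36 (SE 0.10). In bleomycin lungs LNA-miR-199a-5p went with 3 genes higher and 2 lower. Among them were the airway repair factor Klf5 (0.65 ± 0.14), Stat6 (0.31 ± 0.09), Il4ra (-0.55 ± 0.16) and Il1r1 (-0.45 ± 0.10). At 25% of the list, the share called is that of all genes (24.9%) and is no result about these signals. With the heart and fat covariates 0 of the list were called, against 0.82% of all genes. Among lungs given LNA-miR-199a-5p bleomycin raised 4 and lowered 3 (35.0%, against 13.4% of all genes): Klf5 was higher by 0.66 ± 0.16 and Elf3 by 0.39 ± 0.11, and Notch1 fell by 1.04 (SE 0.26) and Foxa1 by 0.45 (SE 0.13). Without replicate 3 in the PBS group given LNA-miR-199a-5p that count was 1 in place of 7. Over all genes the share was then 5.68% in place of 13.4%. Without the thymocyte-rich arrays the counts in the other 2 comparisons were 3 in place of 6 and 2 in place of 5. Over all genes the shares were then 10.8% in place of 17.5% and 11.3% in place of 24.9%.

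Some mucous cell genes and the cytokine gene Il13, picked out here for their spread, were uneven between arrays of bleomycin with LNA-miR-199a-5p. Clca1, a protein secreted by goblet cells, read 9.13, 12.42, 13.28, 8.53 and 9.07 in that group and 8.21 to 9.69 on the other 11 arrays, so replicates 2 and 3 stood apart. The same 2 arrays were the highest of the group for Slc26a4 (9.49, 11.00, 11.76, 8.86 and 9.86), Tff1 (5.19, 6.45, 7.03, 5.28 and 5.72) and Il13 (5.33, 5.75, 5.96, 5.28 and 5.31). They were also the highest of the group for Muc5ac (7.17 and 7.45) and Agr2 (8.94 and 9.39). Il13 and Tff1 were near the lower end of the scale. Other genes of the goblet, mucous and serous list were close together in that group: Spdef read 8.72 to 8.88, Agr3 9.36 to 9.58, Muc20 10.82 to 11.05 and Ern2 5.72 to 6.07. No comparison of Clca1 was called (1.15 ± 0.71 with LNA-miR-199a-5p in bleomycin lungs, limma adjusted p = 0.258). Il13 was called higher after bleomycin among lungs given LNA-miR-199a-5p (0.42 ± 0.13, limma adjusted p = 0.0482). In bleomycin lungs its difference between the LNAs was not called (0.24 ± 0.11, limma adjusted p = 0.133). Tff1 was called higher after bleomycin with LNA-control (1.21 ± 0.33, limma adjusted p = 0.0182). Clca1, Tff1, Il13, Spdef, Agr3, Muc20 and Ern2 are named after their values were seen, and no test was made between these arrays.

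**Figure D5:**
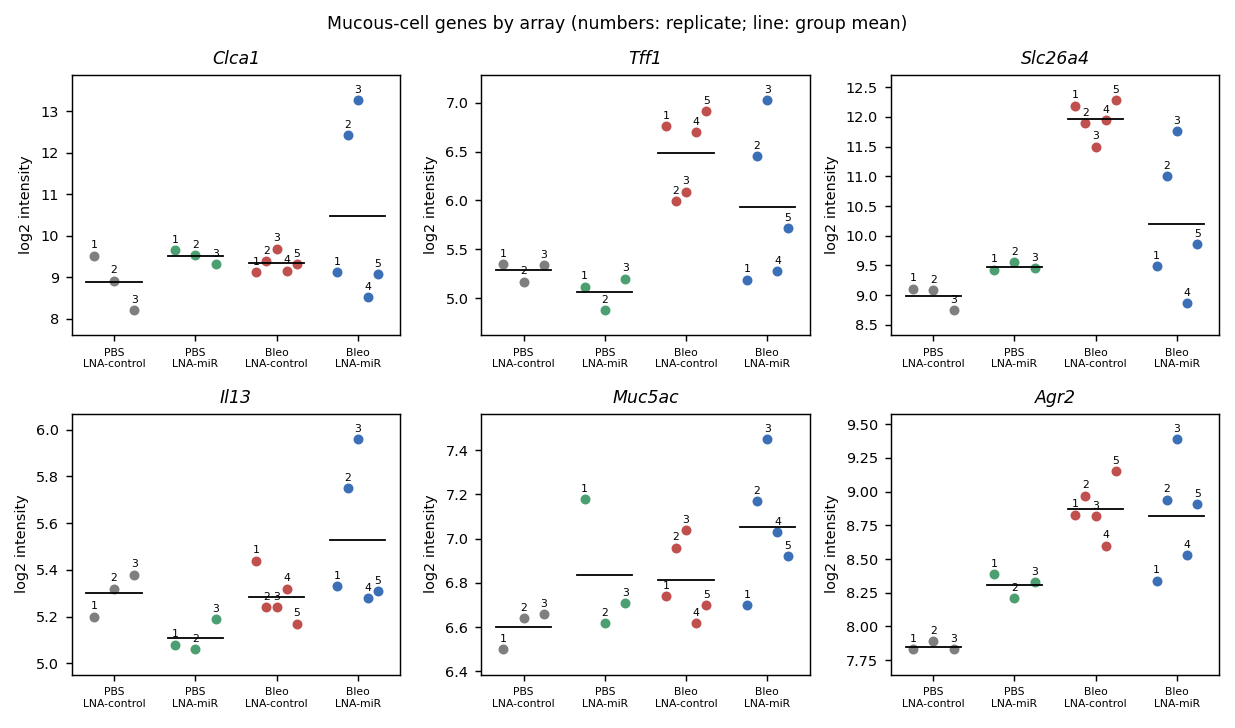
Log2 intensity (vertical axis) of 6 genes, 4 of them chosen for their spread, by group (horizontal axis, where LNA-miR stands for LNA-miR-199a-5p and Bleo for bleomycin). Il13 is a cytokine gene from the list of signals to secretory cells, and the others are mucous cell genes. Points are arrays with their replicate numbers, and lines are group means. Replicates 2 and 3 in the bleomycin group given LNA-miR-199a-5p are the 2 highest of their group in every panel, with Clca1 at 12.42 and 13.28.

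The genes whose profile over the 16 arrays was most like each member's were found among 10430 genes with a mean above the median (10431 for Muc5ac). These correlations describe arrays that share 4 groups and carry no test. For Scgb3a1 they were Cdo1, Hopx and Nfkbia (r of 0.953, 0.946 and 0.945), for Aldh1a1 Stard13, Gnmt and Unc45b (0.972, 0.965 and 0.964) and for Cyp2f2 Gpt, Tcf21 and Amhr2 (0.963, 0.953 and 0.942). For Muc5b they were Ttc27, Dnajb2 and Kat8 (0.952, 0.942 and 0.901), for Bpifa1 Atp2a2, Echs1 and Vamp8 (0.894, 0.863 and 0.861) and for Agr2 Fut4, Noxo1 and Slamf8 (0.919, 0.901 and 0.897). Muc5ac was most like Gm6522, Chil4 and Noxo1 (0.776, 0.768 and 0.737) and Scgb1a1 Pars2, Iqcc and Cops8 (0.762, 0.712 and 0.708). The brighter Scgb3a2 probe was most like 3 predicted genes (Gm4924, Gm1305 and Gm11686, 0.973, 0.972 and 0.961) and the dimmer like Cyp4b1, Pde8b and Ogn (0.977, 0.976 and 0.971).

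After the group means were taken out, the 9 genes were compared in 36 pairs over the 16 arrays. The permutation p of r, adjusted over the 36 pairs, was under 0.05 for 0 pairs, and the smallest was 0.338; unadjusted it was under 0.05 for 5 pairs. The pair of mucous cell genes Agr2 and Muc5ac, picked out after its value was seen, had a Pearson r of 0.657 (permutation p = 0.0256, Benjamini-Hochberg adjusted 0.338) and a Spearman rho of 0.518 (permutation p = 0.0926, adjusted 0.556), and r was 0.506 without the 2 arrays farthest from the median of Agr2.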

How the data were processed

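The values analysed are the log2 intensities of 62976 spots deposited by the authors as 1 table of 16 arrays. The submitters' processing notes name limma, and the background correction and any filter are not given in the sources used here. Sorted values of any pair of arrays lay within 0.0974 of each other. Of the spots 31465 had 1 gene symbol in the platform annotation and 31511 had none. Symbols were updated through RefSeq accessions (29050 matched, 2933 changed), which left 20863 genes, each read from its brightest probe.

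limma 3.58.1 (R 4.3.3) was fitted to all genes and all 4 groups with lmFit and eBayes, with Benjamini-Hochberg adjustment per comparison, after a test on simulated data. The number of arrays limits the precision. The 9 genes and all lists were chosen with earlier results of these data known. Of each pathway list up to 4 genes with the smallest p in each of the first 3 comparisons are named; others are said to be named after their values were seen.

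Arrays of the 2 PBS groups with the same replicate number had correlations of deviations of 0.411, 0.108 and 0.497. Not all such pairs of any other 2 groups passed 0.1. For PBS and bleomycin with LNA-miR-199a-5p the values were 0.116, 0.324 and 0.043. Arrays with different numbers were not compared, so pairing by number was not tested. The other settings were the mean of probes, original symbols, only the groups compared, array weights, a trended robust fit, a filter on dim genes, median centring, RNA integrity, a replicate block, marker means as covariates and left-out arrays. The other Scgb3a2 probe, and the settings for the 3 pathway lists, were chosen after seeing the data.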

Additional observations from a re-analysis of the deposited data

Results flagged for a closer look

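Single arrays stood far from the rest of their group of 5, by the gap to the nearest array over the group's range; chance alone does this in about 1 in 20 groups. In bleomycin with LNA-control these were Scgb1a1 at 18.0 (replicate 3), Scgb3a2 by its brighter probe at 13.88 (replicate 2), the lectin Itln1 at 6.19 (replicate 4) and the transcription factor Elf3 at 8.77 (replicate 3). In bleomycin with LNA-miR-199a-5p they were Scgb1a1 at 18.32, the top of the scale, and Aldh1a1 at 16.51, both on replicate 4. Every named gene was looked at in both groups of 5, so some of these flags can arise by chance alone.

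The effect of LNA-miR-199a-5p differed between bleomycin and PBS lungs by the interaction term of limma for 15 of the genes named. Those with a more positive effect in bleomycin lungs were Scgb3a1 (1.01, limma adjusted p = 0.00533), Muc5b (0.71, 0.0268), Pon1 (0.89, 0.0245), Cldn10 (0.58, 0.0334), Aox3 (1.26, 0.00369), Lypd2 (1.39, 0.00855), Chad (1.42, 0.00844), Gsta3 (0.83, 0.0277), Muc16 (0.83, 0.0135), Klf5 (0.85, 0.0352) and Stat6 (0.57, 0.0306). Those with a more negative effect were Dmbt1 (-0.95, limma adjusted p = 0.00177), Muc4 (-0.80, 0.00393), Slc26a4 (-2.26, 0.0415) and Upk3a (-0.76, 0.0305). Many of these genes were named for small p-values in comparisons of the same arrays. The count of 15 therefore cannot be set against the 7.01% of all genes with a called interaction. With the heart and fat means as covariates the interaction was called for 0 club cell genes, 1 goblet, mucous and serous gene and 0 signal genes. Over all genes it was then called for 0.839%.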

How the results depend on the processing

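Over 45 results for the 9 genes and 12 settings 531 values were compared with the reported ones. Of these, 475 kept direction and side of the threshold, and 27 changed sign, whether or not a call changed with it. Among values that kept direction, 19 lost a call and 10 gained one. Where not stated, the cause was not tested.

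The number of the 9 genes called after bleomycin with LNA-control (4) was 2 with cartilage and squamous covariates, against 10.6% of all genes. It was also 2 with brown fat and heart covariates, against 7.44% of all genes. After bleomycin with LNA-miR-199a-5p (2) it was 0 with only the groups compared, 0 with RNA integrity as a covariate and 1 with the other Scgb3a2 probe, chosen after seeing the data. With LNA-miR-199a-5p in bleomycin lungs (4) it was 1 with brown fat and heart covariates, against 0.82% of all genes. For the interaction (2) it was 1 with RNA integrity, and 1 without the thymocyte-rich arrays, against 2.52% of all genes. It was 1 with cartilage and squamous covariates, against 3.58% of all genes, and 0 with brown fat and heart covariates, against 0.839%. Leaving out each array in turn gave 3 to 4, 0 to 3, 4 to 5, 0 to 0 (PBS lungs) and 1 to 3 (interaction). With the replicate number as a block the counts were 3, 1, 4, 0 and 2. The calls lost were those of Scgb3a2 (-0.67, limma adjusted p = 0.112, and -0.81, 0.0872), and the block changed no other call. For only the groups compared, RNA integrity, the block and most left-out arrays the shares of all genes called were not counted. Whether the counts of the 9 genes changed more than those shares is therefore not known.

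After bleomycin with LNA-control the sign changed for Scgb1a1 with the mean of probes (0.01) and, with brown fat and heart covariates, for Cyp2f2 (0.10) and Bpifa1 (0.12). After bleomycin with LNA-miR-199a-5p it changed for Aldh1a1 with median centring (-0.02), RNA integrity (-0.04) and brown fat and heart covariates (-0.01). For Aldh1a1 the reported fit with arrays left out gave -0.03 to 0.09.

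With LNA-miR-199a-5p in bleomycin lungs it changed for Scgb1a1 with the mean of probes (-0.01) and for Scgb3a2 with the mean of probes (0.18) and the other probe (0.71). With brown fat and heart covariates it changed for Scgb3a2 (0.01), Cyp2f2 (-0.24), Bpifa1 (-0.05) and Agr2 (0.35). For Agr2 the reported fit with arrays left out gave -0.20 to 0.07.

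In PBS lungs it changed for Scgb1a1 with the mean of probes (0.00), Bpifa1 with brown fat and heart covariates (-0.13) and Scgb3a1 with array weights (0.09). The reported fit with arrays left out gave -0.08 to 0.58 for Bpifa1 and -0.13 to 0.10 for Scgb3a1. With cartilage and squamous covariates the sign changed for Scgb3a1 (0.17), Aldh1a1 (0.13) and Scgb3a2 (0.14). For Aldh1a1 the reported fit with arrays left out gave -0.07 to 0.05.

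For the interaction it changed for Scgb1a1 with the mean of probes (-0.01) and Cyp2f2 with brown fat and heart covariates (-0.10). Scgb3a2 changed with the mean of probes (0.31), array weights (0.14), RNA integrity (0.01), brown fat and heart covariates (0.11) and the other probe (0.76). By its brighter probe the reported fit with arrays left out gave -0.33 to 0.04. Arrays were not left out for the other probe. Muc5ac changed with RNA integrity (-0.02), without the thymocyte-rich arrays (-0.08) and with cartilage and squamous covariates (-0.27). For Muc5ac the reported fit with arrays left out gave -0.10 to 0.18. The ceiling limits Scgb1a1 and Cyp2f2, and low signal limits Muc5ac.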

Other observations

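The alveolar lining, set beside the airway genes, had 3 of 9 type 1 cell genes lower and 2 higher after bleomycin with LNA-control, and 5 higher and 1 lower with LNA-miR-199a-5p in bleomycin lungs. Of 12 type 2 cell genes 3 were lower and 1 higher in the first comparison, and 3 were higher in the second. Of 10 basal cell genes 1 was higher in each, with group means of 9.57, 9.77, 10.24 and 10.75 for PBS with LNA-control, PBS with LNA-miR-199a-5p, bleomycin with LNA-control and bleomycin with LNA-miR-199a-5p. Of all genes 17.5% were called in the first comparison and 24.9% in the second. The lists' shares were 55.6% and 66.7% for type 1, 33.3% and 25% for type 2 and 10.0% in both for basal cell genes, the last below the share of all genes.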
